A study of Mus musculus with 12 samples.

Results

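The spleen of untreated DUSP1-/- mice was compared with that of untreated DUSP1+/+ mice to see what the loss of this phosphatase did to gene expression at rest, before any challenge. The series held 12 Affymetrix MOE430A 2.0 arrays, each hybridised with total RNA from the spleen of 1 mouse, in 4 groups of 3 mice. The comparison used the 3 arrays labelled DUSP1-/- control and the 3 labelled DUSP1+/+ control, and it covered the 19694 of 22690 probe sets that matched 1 autosomal gene and were no array controls, which stood for 11970 genes. Both groups were given as untreated, with no mention of an injection. The 6 remaining arrays, DUSP1-/- LPS and DUSP1+/+ LPS, came from other mice, 6 h after an intraperitoneal dose of E. coli LPS (10 µg/g), and are used here for comparison. How the DUSP1-/- allele was made, and the strain, age and sex of the mice, are not given in the sources used here. Genotypes below are those of the labels, and the arrays are called wild-type or knockout controls 1 to 3, always in that order.

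DUSP1 (also called MKP-1) is a nuclear phosphatase that removes phosphate from the activation loop of the MAP kinases p38, JNK and, less readily, ERK. Its gene is an immediate-early gene: stress, growth factors, glucocorticoids and bacterial products switch it on within minutes, and the protein then shuts off the kinases that induced it, which limits cytokine production by macrophages. The spleen is mostly B and T lymphocytes in white pulp, with macrophages, red cells and, in mice, blood-forming islands in red pulp. It lies against the tail of the pancreas.

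The stretches just upstream of the start sites of Dusp1 and of the immediate-early genes Fos and Jun are shown because Dusp1 and Fos are known for cyclic AMP response elements in this stretch, and because all 3 genes varied between untreated mice as described below. Each is the 250 bases before the start, 5′ to 3′, from RefSeq on mouse GRCm38.p6: chr17:26508473-26508722 on the minus strand for Dusp1, chr12:85473640-85473889 on the plus strand for Fos, and chr4:95052223-95052472 on the minus strand for Jun. Capitals mark matches to the core TGACGT or its reverse complement ACGTCA.
Dusp1: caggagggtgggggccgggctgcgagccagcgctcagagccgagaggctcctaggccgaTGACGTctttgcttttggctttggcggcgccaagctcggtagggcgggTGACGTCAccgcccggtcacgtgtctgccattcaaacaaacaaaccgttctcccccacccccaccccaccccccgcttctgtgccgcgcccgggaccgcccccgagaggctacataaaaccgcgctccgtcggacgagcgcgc
Fos: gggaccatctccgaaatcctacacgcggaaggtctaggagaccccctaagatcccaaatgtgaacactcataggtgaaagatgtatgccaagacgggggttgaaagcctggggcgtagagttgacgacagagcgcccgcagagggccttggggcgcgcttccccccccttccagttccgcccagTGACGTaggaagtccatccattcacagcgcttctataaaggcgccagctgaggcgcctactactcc
Jun: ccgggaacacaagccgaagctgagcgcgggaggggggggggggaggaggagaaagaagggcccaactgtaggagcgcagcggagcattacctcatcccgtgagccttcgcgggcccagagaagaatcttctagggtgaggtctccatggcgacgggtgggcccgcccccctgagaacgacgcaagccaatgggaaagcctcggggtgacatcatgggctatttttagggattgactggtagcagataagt
The Dusp1 window held 3 matches, 2 of which overlapped in a palindrome, the Fos window 1 and the Jun window 0. Among all 32851 RefSeq windows of this length, 6.47% held the core on either strand. A match is a match of letters and was not tested as a binding site.

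Dusp1 signal was present in all 6 untreated spleens. Its single probe set read 479, 1354 and 627 intensity units in the wild-type controls and 677, 1528 and 1443 in the knockout controls. The groups overlapped, and the knockout mean was the higher. The log2 difference, knockout minus wild-type, was 0.63 ± 0.41 (SE, limma, 3 arrays a group; 95% interval -0.28 to 1.53, adjusted p = 1). With each control array left out in turn, it ran from 0.31 without wild-type control 1 to 1.06 without wild-type control 2. The sources used here do not say which exons the mutation removed, so this probe set does not check the labels. After LPS the knockout arrays read 4963, 2948 and 4996 and the wild-type arrays 2248, 2142 and 2116, all higher than any untreated array.

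The untreated arrays carried RNA of other organs in unequal amounts, and the arrays that stood apart were different ones for each organ. The mean log2 intensity of 34 pancreas genes was 9.39, 4.54 and 4.45 in the wild-type controls and 8.71, 4.58 and 6.57 in the knockout controls. The trypsinogen Prss2 read 8116, 46 and 46 against 3981, 42 and 503, so wild-type control 1 and knockout controls 1 and 3 held pancreas signal. Liver genes (34) averaged 4.48, 6.79 and 5.84 against 4.37, 8.38 and 6.31. Albumin (Alb) read 26, 1975 and 383 against 29, 5986 and 825, with the top value in knockout control 2. Lung genes (19) averaged 5.14, 5.28 and 5.66 against 5.00, 6.53 and 6.37. The surfactant gene Sftpc read 20, 57 and 94 against 15, 966 and 895, high in knockout controls 2 and 3.

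Red cell precursor signal also differed between mice of 1 genotype. Their list (37 genes, with heme synthesis) averaged 6.82, 8.71 and 7.41 in the wild-type controls and 10.05, 6.29 and 5.94 in the knockout controls. Klf1, the master transcription factor of these cells, read 171, 1389 and 400 against 3923, 64 and 30, so the highest and the lowest of the 6 spleens were both knockout. The group differences in these 4 lists were not extreme among relabellings of the 6 arrays. The exact permutation test gave a two-sided p of 0.8 for pancreas, 0.7 for liver, 0.4 for lung and 0.9 for red cell precursors. The smallest p this design allows is 0.1, so the test cannot exclude uneven carry-over. The lung means of knockout controls 2 and 3 were above those of every wild-type control. None of the lists' autosomal members separated the groups. Xist, transcribed from the inactive X chromosome, read 2673, 35 and 47 against 1777, 3949 and 1756. The Y-linked Eif2s3y read 7, 316 and 53 against 7, 10 and 8. The arrays with low Xist were all wild-type, so the groups also differed in sex-linked transcripts, and only autosomal genes are compared. This restriction does not remove the imbalance, because autosomal genes could vary with the same pattern. Without the low-Xist arrays only wild-type control 1 is left, so this pattern and genotype cannot be told apart for the autosomal genes. In whole spleen, fewer cells of a type and less RNA per cell cannot be told apart.

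**Figure D1:**
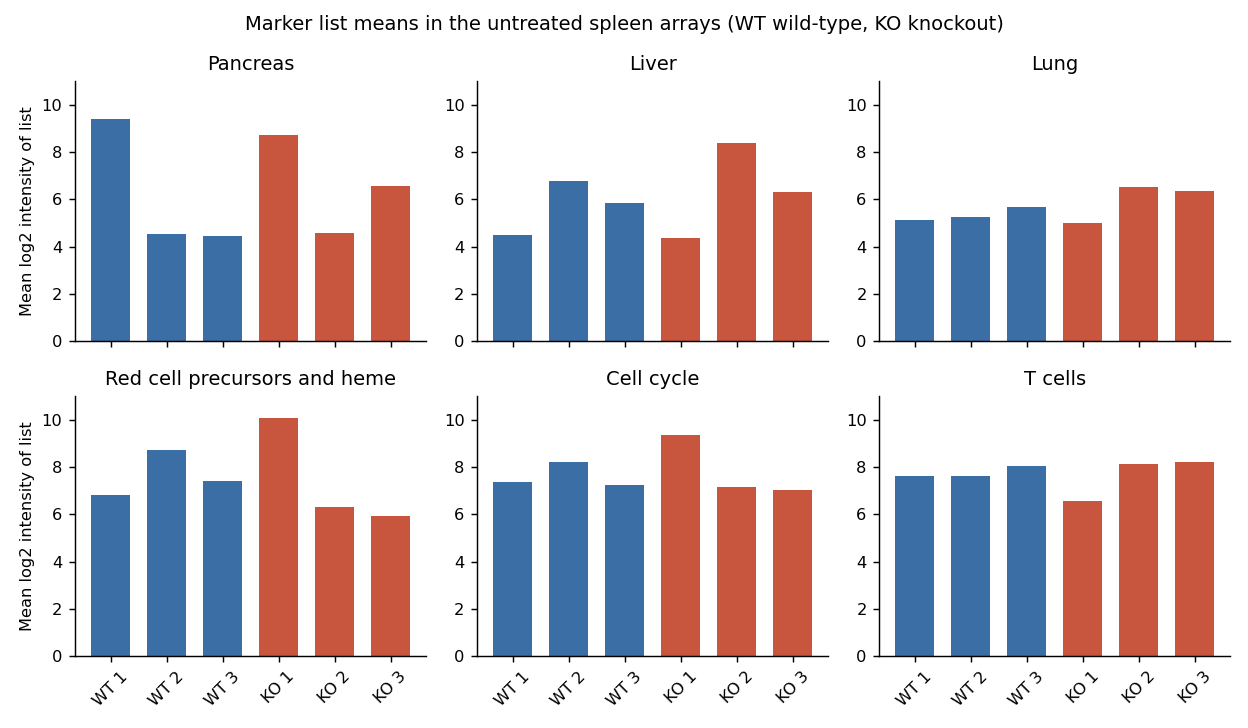
Mean log2 intensity of 6 marker lists (vertical axis) in each untreated spleen array (horizontal axis; blue wild-type controls 1 to 3, red knockout controls 1 to 3, 1 mouse a bar). Pancreas signal is high in wild-type 1, knockout 1 and, less so, knockout 3, liver in knockout 2, and red cell precursor and cell cycle genes in knockout 1, which has the lowest T cell mean of 6.57.

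No autosomal gene differed between untreated knockout and wild-type spleen at an adjusted p under 0.05 (limma over all 22626 probe sets, 0% of 11970 genes; 0 of 19694 probe sets). At an unadjusted p under 0.05 there were 167 genes (1.4%), 89 higher (0.744%) and 78 lower (0.652%) in the knockout, and there were 292 probe sets (1.48%). The smallest unadjusted limma p was 0.000281, and the smallest adjusted p was 1. In 297 genes (2.48%) the 3 knockout values lay entirely outside the range of the 3 wild-type values, 182 of them higher (1.52%) and 115 lower (0.961%). Among the 7887 genes above the 40th percentile of mean intensity, 118 (1.5%) were higher and 98 (1.24%) lower in this way. Only 86 genes (0.718%) differed by 1 log2 unit or more, and 19 of those (0.159%) also had no overlap. With 3 against 3 arrays, no overlap is the most extreme outcome, and an exact permutation test gives it a two-sided p of 0.1. The 2.48% of genes lies below that level, so a lack of overlap by itself marks no difference.

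The arrays' spread limits what could have been seen. The median 95% interval extended 0.597 log2 units, or 1.51-fold, to either side. For 8457 genes (70.7%) the whole interval lay within 1 log2 unit of 0, so a larger difference of those genes is outside their interval. The remaining genes could have differed more without being seen. The median SD between arrays was 0.31 log2 units among wild-type controls and 0.36 among knockout controls, against 0.24 and 0.22 in the wild-type and knockout LPS groups.

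Genotype did not order the arrays by likeness. The pair most alike crossed genotypes: wild-type control 3 and knockout control 3 had 346 autosomal genes at least 2-fold apart (2.89%; Pearson r = 0.982 across genes). The pair least alike shared the genotype: knockout controls 1 and 2 had 2650 genes 2-fold apart (22.1%; r = 0.903). Over the 6 pairs of the same genotype the median was 1579 genes, and over the 9 pairs of different genotype it was 1268. Genes within an array are not independent, so these values describe the pairs only.

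**Figure D2:**
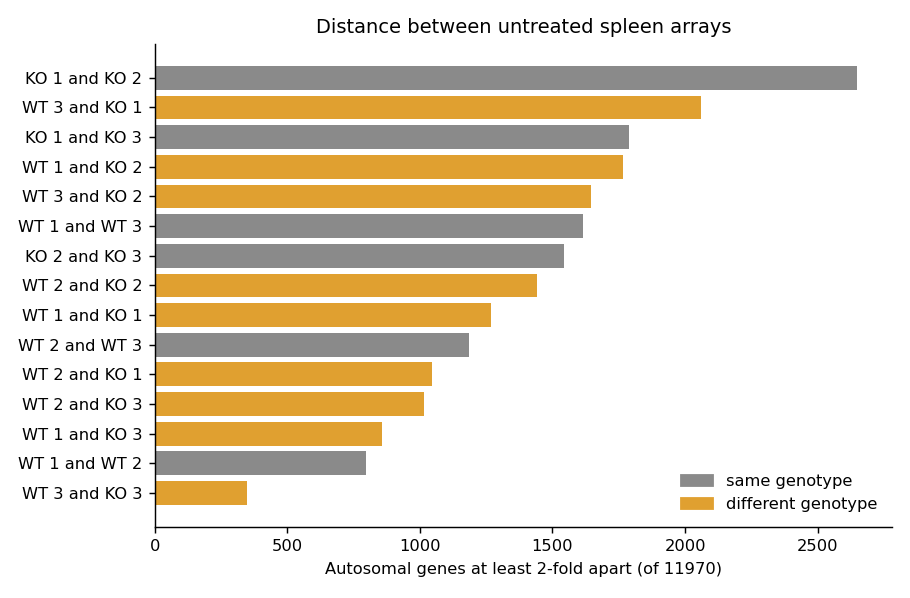
Number of autosomal genes at least 2-fold apart (horizontal axis, of 11970) for each of the 15 pairs of untreated arrays (WT wild-type, KO knockout; grey same genotype, orange different genotype). The shortest bar, 346 genes, joins a wild-type and a knockout spleen, and the longest, 2650 genes, joins 2 knockout spleens.

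Knockout controls 1 and 2 also supplied most of the extremes. Of the 182 genes that were higher with no overlap, the highest value was in knockout control 2 for 92, in control 1 for 61 and in control 3 for 29. Of the 115 lower genes, the lowest value was in control 2 for 56, in control 1 for 44 and in control 3 for 15.

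Among the genes higher in all 3 knockout controls, the glyoxalase Glo1, which detoxifies methylglyoxal, stood out on every probe set. Its brightest probe set read 256, 803 and 650 in the wild-type and 2253, 1435 and 964 in the knockout controls. The second read 259, 302 and 272 against 949, 514 and 768, and the third 145, 211 and 145 against 632, 391 and 541. The groups did not overlap on any of the 3, which differed by 1.51 ± 0.45, 1.38 and 1.64 log2 units. With each array left out in turn the brightest probe set gave 1.02 to 1.84. After LPS its values were 292, 460 and 272 against 322, 507 and 565, which overlapped.

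Dnah8, a dynein heavy chain of cilia and sperm tails which lies close to Glo1 on chromosome 17, was dim but higher as well. It read 58, 36 and 37 in the wild-type and 68, 259 and 124 in the knockout controls, 3.05-fold higher on the means of log values (1.61 ± 0.43). Its second probe set was at background, 9 to 14 in all 6 arrays. The brighter set separated the genotypes again in the LPS mice, at 32, 33 and 35 against 46, 89 and 87.

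Pim1, a serine-threonine kinase induced by cytokines through STAT factors, was higher in both states. Its brighter probe set read 272, 210 and 268 in the wild-type and 535, 361 and 421 in the knockout controls (0.80 ± 0.26). The dimmer set read 32, 38 and 71 against 203, 102 and 124 (1.63). After LPS the brighter set read 460, 848 and 707 against 1267, 1913 and 1747, again with no overlap, a difference of 1.31 ± 0.26. The dimmer set overlapped after LPS, at 99, 525 and 151 against 514, 912 and 613.

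Gstp3, a glutathione S-transferase of the pi class, read 73, 92 and 112 in the wild-type and 179, 178 and 134 in the knockout controls (0.83 ± 0.22), and separated the genotypes after LPS too (0.74). Tnfrsf17, the plasma cell receptor BCMA, read 34 in each wild-type control and 53, 50 and 98 in the knockout controls (0.91 ± 0.30). Nnmt, which methylates nicotinamide, read 28, 31 and 32 against 43, 73 and 106. These last values are low on a scale where 30.8% of all values were under 20. Cdk5rap1 (1.14), the cytochrome oxidase subunit Cox6a2 (1.11), Arvcf (0.66), the SNARE Vti1a (0.63), Znhit3 (0.60), Cinp (0.58), Nudt22 (0.57), the mitochondrial ribosomal protein Mrpl46 (0.55) and Faf1 (0.46) completed the 15 genes of smallest p among those higher with no overlap.

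Among the genes lower in all 3 knockout controls, Nfkbiz encodes IκBζ, a nuclear co-activator needed for a second wave of NF-κB target genes, including Il6. Its brighter probe set read 248, 332 and 203 in the wild-type and 84, 71 and 185 in the knockout controls. The highest knockout value lay just below the lowest wild-type value, and the log2 difference was -1.31 ± 0.33 (-1.04 to -1.73 with each array left out). The dimmer set overlapped, at 37, 78 and 55 against 24, 94 and 44.

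Pou2af1 (OBF-1), the B cell co-activator of Oct factors, read 2116, 1880 and 1912 in the wild-type and 992, 768 and 1609 in the knockout controls. The wild-type mice were close to each other, the knockout mice were not, and the difference was -0.88 ± 0.23. The ETS factors Elf1 (353, 444 and 356 against 203, 84 and 276; -1.19 ± 0.39) and Fli1 (256, 324 and 385 against 191, 133 and 187; -0.92 ± 0.24), both active in blood and endothelial cells, were lower too. A second probe set of Fli1 gave 0.14.

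Igfbp3, a secreted binding protein of insulin-like growth factors, read 399, 423 and 679 in the wild-type and 174, 108 and 342 in the knockout controls (-1.39 ± 0.38, 2.61-fold lower). Zfp36l1, an RNA-binding protein that speeds the decay of AU-rich messages, read 1348, 1573 and 1777 against 926, 653 and 1297 (-0.75 ± 0.23) on its brighter set. Its dimmer set overlapped (-0.26).

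Map2k1, the ERK kinase MEK1, read 453, 489 and 578 in the wild-type and 294, 300 and 436 in the knockout controls (-0.58 ± 0.19). Eps8l1, related to the actin regulator EPS8, read 131, 101 and 61 against 40, 23 and 50 (-1.38 ± 0.37). The others of the 15 lowest by p were Fbxo22 (-0.87, with other probe sets at 0.03 to 0.20), Plxnc1 (-0.82), Tspyl1 (-0.82), the VPS34 partner Pik3r4 (-0.80), Tmem123 (-0.67), Cyrib (-0.64) and Sowahc (-0.55). All 30 of these genes kept their sign in every alternative that was run. Leaving out arrays could not change it, since the genes were chosen for groups that do not overlap. Each of the 30 has an adjusted p of 1.

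**Figure D3:**
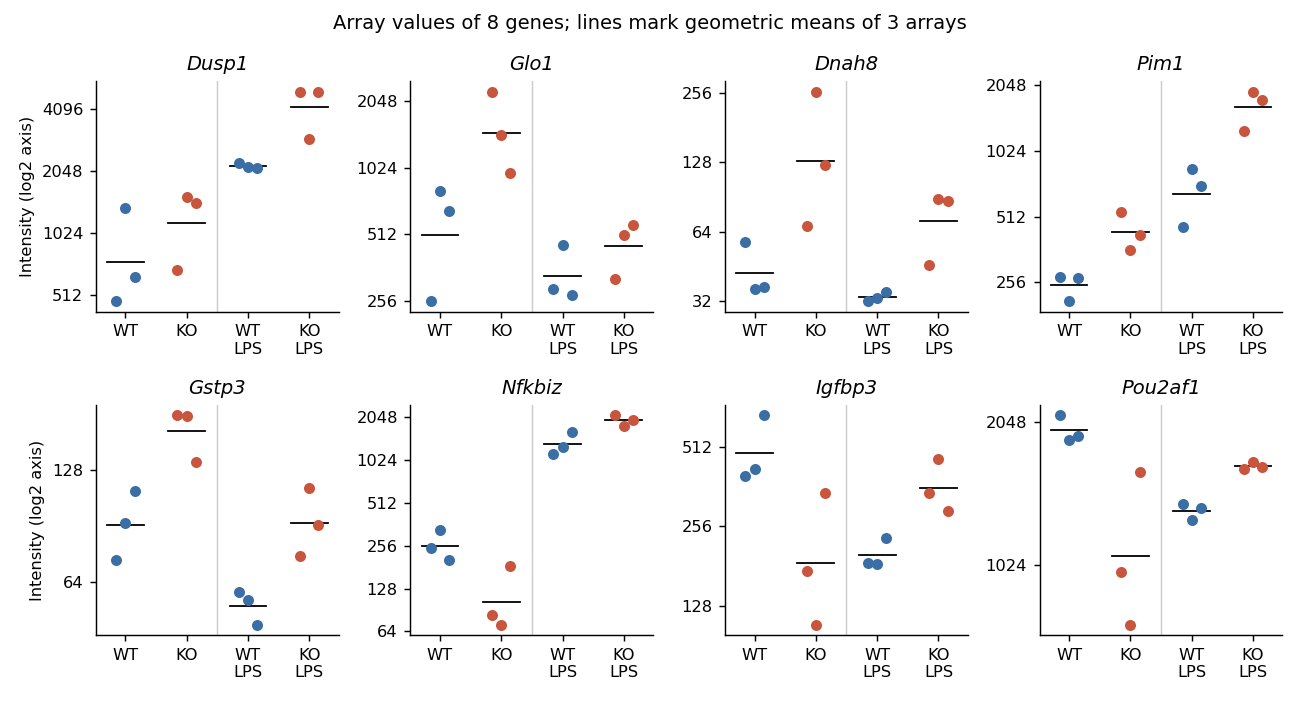
Intensity of 8 genes in every array (vertical axis, log2 scale; blue wild-type, red knockout; untreated groups left of the grey line, LPS groups right of it; black lines are geometric means of 3 arrays). Untreated groups overlap for Dusp1 and separate for the other 7, and for Nfkbiz, Igfbp3 and Pou2af1 the LPS groups separate in the opposite direction.

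Several of the lower genes were lowest by far in knockout control 2, the array highest in liver genes. Hspa8, the constitutive HSC70 chaperone, read 1528, 2266 and 2228 in the wild-type and 1266, 80 and 1258 in the knockout controls. Its log2 difference of -1.97 ± 0.84 became -0.65 without that array. The repressor Zbtb18 read 572, 584 and 510 against 220, 37 and 362, and went from -1.95 to -0.97. Likewise the actin-binding Cald1 went from -1.37 to -0.66, and Ndfip1, an adaptor of NEDD4 ubiquitin ligases, from -1.28 to -0.57. Other Hspa8 probe sets differed by -0.80 to -0.13. Among higher genes, the liver cytochrome Cyp2a12 (26, 29 and 28 against 30, 137 and 31) went from 0.86 to 0.14 without it.

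The region around Dusp1 on chromosome 17 held some of the separating genes. Of 311 measured genes within 10 Mb of it in the RefSeq table (GRCm38.p6), 0 passed the adjusted threshold and 11 had no overlap (3.54%, beside 2.48% of all autosomal genes), 7 higher and 4 lower. Besides Glo1, Dnah8 and Pim1, the higher ones were Wdr4, Pfdn6, Agpat1 and Flywch2, with differences of 0.46, 0.38, 0.32 and 0.21. The median log2 difference over all 311 was 0.10, beside 0.07 over all autosomal genes.

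Baiap3, a regulator of dense-core vesicle traffic, had the smallest p of all autosomal genes. It read 50, 32 and 45 in the wild-type and 23, 20 and 15 in the knockout controls (-1.13 ± 0.21). It was near background in all LPS arrays, at 20, 21 and 18 against 18, 20 and 16. Gfer, a sulfhydryl oxidase of mitochondria, read 212, 227 and 304 against 171, 187 and 155 (-0.52 ± 0.28), and 328, 607 and 554 against 200, 272 and 149 after LPS. Its other probe set separated the genotypes the other way at rest (0.78), with 132, 79 and 121 against 162, 144 and 273. That set did so after LPS too, at 97, 176 and 160 against 240, 325 and 186.

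The genes next to Dusp1 itself showed no such separation. Ergic1, which cycles between endoplasmic reticulum and Golgi, read 160, 115 and 163 in the wild-type and 92, 141 and 180 in the knockout controls. The proton pump subunit Atp6v0e read 1294, 1553 and 2001 against 1630, 1851 and 1924. Both overlapped. Near Glo1 and Dnah8, 1700097N02Rik (20, 17 and 27 against 22, 34 and 54) and Glp1r (12, 11 and 13 against 12, 18 and 15) overlapped as well. Both were dim, on a scale where 30.8% of all values were under 20, so their overlap says little. These neighbours were picked for position after the values of Glo1 and Dnah8 had been seen.

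The other dual-specificity phosphatases overlapped between genotypes, with 1 dim exception. Of 13 measured autosomal members, Dusp1 included, 0 passed the test, 7 were above 0, and the median log2 difference was 0.01 (-0.04 after median scaling, -0.03 after quantile normalization and -0.02 after cyclic loess). Dusp6, the ERK phosphatase, read 164, 471 and 684 in the wild-type and 222, 465 and 367 in the knockout controls. Dusp2, another nuclear member, read 273, 491 and 798 against 181, 684 and 672. Dusp16, which acts on JNK, read 194, 287 and 165 against 101, 193 and 160. All 3 overlapped. Dusp14 alone separated, at 18, 17 and 18 against 20, 24 and 26, which is near background. It is 7.69% of the list, beside 1.52% of all autosomal genes higher with no overlap.

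Among the kinases that DUSP1 acts on, and those above them, 3 were lower in the knockout with no overlap. Of 24 autosomal genes of the MAP kinase pathway, 0 passed, 12 were above 0 and the median was 0.01 (-0.05, -0.03 and -0.02 under the same scalings). The p38 kinase Mapk14 read 963, 1099 and 1323 in the wild-type and 823, 994 and 1190 in the knockout controls. The JNK genes Mapk8 (101, 103 and 74 against 92, 169 and 74) and Mapk9 (259, 330 and 205 against 258, 497 and 210) overlapped. The 3 that separated are 12.5% of the list, beside 0.961% of all autosomal genes, and 0 members were higher with no overlap. Besides Map2k1, these were Map3k8 (TPL2), which links LPS to ERK, at 93, 130 and 107 against 50, 80 and 80, and the atypical kinase Mapk6, at 163, 204 and 187 against 145, 125 and 158.

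Immediate-early genes, which these kinases induce, varied between mice, and all but 1 overlapped between genotypes. Fos read 107, 141 and 118 in the wild-type and 28, 109 and 136 in the knockout controls. Jun read 115, 214 and 372 against 90, 498 and 322, and Egr1 330, 232 and 579 against 140, 619 and 536. All 3 were lowest among the knockout mice in knockout control 1. Of 29 AP-1 and immediate-early genes 0 passed, 16 were above 0 and the median was 0.02 (-0.04 after median scaling). The difference of Fos was -0.70 ± 0.47. The exception, Fosl1, was near background, at 14, 14 and 15 against 13, 12 and 12. It is 3.45% of the list, beside 0.961% of all autosomal genes lower with no overlap.

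The cytokine genes Il6 and Il10 were near background in nearly all untreated spleens, and Tnf was low. Il6 read 13, 11 and 14 in the wild-type and 11, 59 and 13 in the knockout controls. Tnf read 70, 44 and 88 against 66, 111 and 72, and Il10 12, 14 and 17 against 13, 17 and 14. Knockout control 2 had the highest value of Il6 and Tnf, and of the chemokines Ccl2 (28, 31 and 39 against 20, 68 and 25), Ccl3 (21, 19 and 24 against 19, 55 and 19) and Cxcl2 (16, 17 and 19 against 12, 53 and 18). After LPS Il6 was in another range, at 603, 183 and 585 against 3021, 2069 and 3063.

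As groups, 21 proinflammatory cytokines had 0 calls, 15 above 0 and a median of 0.18, and 29 chemokines had 0 calls, 19 above 0 and a median of 0.12. Over all 11970 genes 7496 were above 0, with a median of 0.07. Without knockout control 2 the medians of both lists went to -0.03 and -0.11, and that of all genes to -0.01. After median scaling, with all arrays, these medians were 0.13, 0.06 and 0.01. The chemokine median was also -0.01 without wild-type control 2. Ccl24, an eosinophil attractant, separated at 49, 37 and 41 against 81, 50 and 63 (0.59 ± 0.21). It was 1 of 2 chemokines higher with no overlap, 6.90% of the list beside 1.52% of all autosomal genes.

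Lymphocyte genes were lowest in knockout control 1, the mouse with the highest red cell precursor signal. B cell genes averaged 9.80, 9.89 and 10.25 in the wild-type and 9.07, 10.10 and 10.02 in the knockout controls. Of 16 autosomal members 0 passed, 1 was above 0 and the median was -0.14. Without knockout control 1, 8 were above 0 and the median was 0.00. Pou2af1, described above, was the only member whose groups did not overlap (6.25% of the list, beside 0.961% of all autosomal genes lower in this way). The antigen receptor chain Cd79a read 1882, 2811 and 4499 against 1264, 4363 and 3685.

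T cell genes averaged 7.64, 7.62 and 8.06 in the wild-type and 6.57, 8.11 and 8.19 in the knockout controls. Of 20 autosomal members 4 were above 0 with all arrays, and the median was -0.15. Without knockout control 1 it was 0.37, with 19 above 0. The adaptor Lat read 585, 511 and 842 against 217, 566 and 1023. The direction of this list therefore turned with 1 mouse. So did that of the NF-κB pathway, whose median went from -0.19 (3 of 19 above 0) to 0.20 (14 above 0) without knockout control 1 and to 0.02 without wild-type control 3.

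NK and cytotoxic cell genes had a median of -0.19 with 2 of 17 above 0, and -0.06 without knockout control 1. Their member Gzma, granzyme A, was lower with no overlap, at 570, 758 and 717 against 532, 495 and 197. It is 5.88% of the list, beside 0.961% of all autosomal genes lower in this way. MHC class II genes had 1 of 13 above 0 and a median of -0.15, which became 0.04 without knockout control 1 and 0.03 without wild-type control 3. Of 29 monocyte and macrophage genes 8 were above 0 (median -0.06). Vcam1, which macrophages and endothelium of the spleen carry, read 3707, 4516 and 3368 against 3160, 3036 and 2820. None of these lists had a member past the adjusted threshold.

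Proliferation genes were highest in knockout control 1 and wild-type control 2, as were the red cell precursor genes. The cell cycle list averaged 7.34, 8.22 and 7.25 in the wild-type and 9.35, 7.13 and 7.03 in the knockout controls. Mki67, the proliferation antigen Ki-67, read 1001, 1129 and 196 against 2512, 493 and 277. With all arrays 32 of 36 members were above 0 (median 0.24). Without knockout control 1, 3 were above 0 and the median was -0.37. The red cell precursor median over 34 autosomal members was -0.23 with all arrays, -1.54 without knockout control 1 and 0.57 without knockout control 3. The part of red cell precursors in the other lists was not tested, and a fit with the pancreas, liver and red cell precursor means as covariates also called 0 genes.

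The lists of mitochondrial genes kept a median above 0 whichever control array was left out, but they were not alone in this. So did the lung, muscle, adipocyte, mesothelium and epithelium, plasma cell, fatty acid oxidation and unfolded protein lists. The median of all autosomal genes fell below 0 only without knockout control 2 (-0.01). Mitochondrial ribosomal proteins averaged 8.09, 8.15 and 8.41 in the wild-type and 8.37, 8.36 and 8.52 in the knockout controls, and wild-type control 3 overlapped the knockout group. Of 43 members 0 passed, 35 were above 0, and the median was 0.24, or 0.17 to 0.35 with 1 array left out and 0.19 to 0.26 under the other scalings. Mrpl40 (330, 342 and 417 against 428, 492 and 459), Mrpl20 (434, 546 and 661 against 972, 670 and 717) and Mrps33 (339, 362 and 324 against 389, 506 and 404) separated. They are 6.98% of the list, and 1.52% of all autosomal genes were higher with no overlap.

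Respiratory chain subunits had a smaller median, 0.16, and 39 of 49 above 0 (0.11 to 0.21 with 1 array left out, 0.10 to 0.24 under the other scalings). They averaged 10.26, 10.35 and 10.39 in the wild-type and 10.58, 10.28 and 10.51 in the knockout controls. Knockout control 2 thus lay within the wild-type range. Of the list, 6.12% was higher with no overlap, beside 1.52% of all autosomal genes. Ndufs3, a core subunit of complex I, read 765, 810 and 756 against 923, 846 and 974. In the LPS mice both medians had the opposite sign, -0.30 for mitochondrial ribosomal proteins and -0.12 for the respiratory chain. Cytosolic ribosomal proteins had 8 of 18 above 0 and a median of -0.02, which was 0.06 after quantile normalization and 0.09 after cyclic loess.

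In lipid synthesis, Scd1, which makes monounsaturated fatty acids, read 1514, 2168 and 2499 in the wild-type and 696, 1275 and 1629 in the knockout controls (-0.83 ± 0.30), with 1 wild-type array below the highest knockout array. Its relative Scd2 read 519, 490 and 555 against 321, 333 and 453 (-0.51 ± 0.22) with none. Scd2 is 5% of its list, beside 0.961% of all autosomal genes lower with no overlap. The whole list of cholesterol and fatty acid synthesis leaned slightly up instead, with 14 of 20 above 0 and a median of 0.13.

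Mesothelial and epithelial genes, which the thin capsule of the spleen could hold, averaged 4.61, 4.40 and 4.63 in the wild-type and 4.91, 4.89 and 5.02 in the knockout controls. These means did not overlap, but only 4 of the 13 members had a mean intensity over 30.5, the 40th percentile. Upk3b read 17, 19 and 27 against 72, 32 and 43, and the keratin Krt7 16, 14 and 14 against 18, 40 and 27. Muscle genes averaged 4.02, 3.88 and 4.06 against 4.08, 4.76 and 4.08, and 0 of 16 were above that percentile. Most of their difference lay in knockout control 2, without which their median log2 difference went from 0.26 to 0.10. That array had the highest median intensity of the untreated arrays, 63. After median scaling the median log2 difference of the muscle genes was 0.21.

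**Figure D4:**
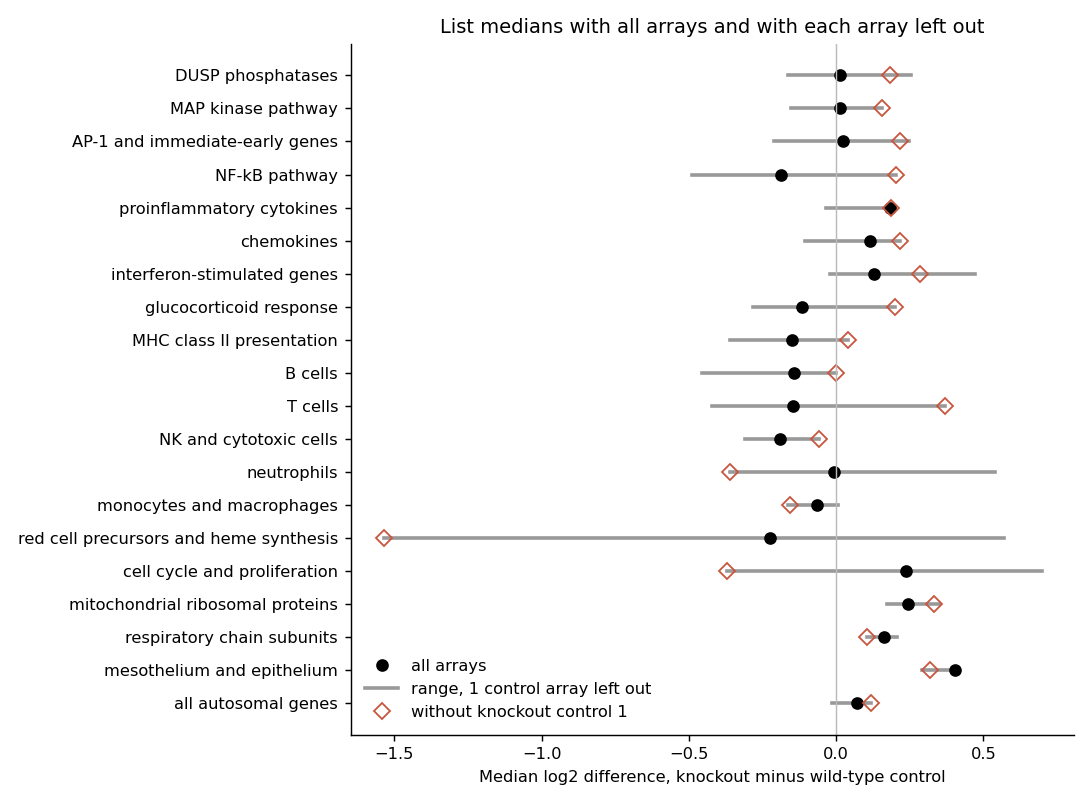
Median log2 difference, knockout minus wild-type control (horizontal axis), of 19 gene lists and of all autosomal genes. Black dots use all arrays, grey bars span the values with 1 control array left out, and red diamonds leave out knockout control 1. The T cell, NF-κB and cell cycle medians cross 0 without that mouse. Among those that do not are the mitochondrial ribosomal proteins (0.24), the respiratory chain (0.16) and mesothelium and epithelium (0.405).

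The LPS mice gave a second, independent set of animals with the same genotypes, in another state. There, 44 autosomal genes (0.368%) passed the adjusted threshold and 2218 (18.5%) had no overlap, 1054 higher (8.81%) and 1164 lower (9.72%), against 0 and 297 at rest. Of the 44, 27 were higher (0.226%) and 17 lower (0.142%). Of the 182 genes higher with no overlap at rest, 77 (42.3%) were also higher in LPS-treated knockout spleen, beside 52.4% of all autosomal genes, and 8 (4.4%) had no overlap there. Of the 115 lower genes 59 (51.3%) were also lower, beside 47.3% of all, and 12 (10.4%) had no overlap there.

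With no overlap in the same direction in both states there were 20 genes, 8 higher (0.0668%) and 12 lower (0.1%). The higher ones were Dnah8, Pim1, Gstp3, Mgp, Pdpn, Rell1, Manbal and Fgf23. Mgp, an inhibitor of calcification, read 270, 223 and 329 against 375, 340 and 572 at rest. Podoplanin (Pdpn), carried by reticular cells of the white pulp, read 32, 20 and 31 against 44, 35 and 46. The lower ones included Gfer, Scd2, the adenylate cyclase Adcy7 (1655, 1587 and 1272 against 589, 999 and 1239), Ubqln1, Tbc1d17 and Amacr. Of the 20, 4 lie within 10 Mb of Dusp1: Dnah8, Pim1, Gfer, whose other set went the opposite way in both states, and Rpl10a. They are 1.29% of the 311 genes measured there, beside 0.167% of all autosomal genes, of which the window holds 2.60%.

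A further 37 of the 11970 genes separated the genotypes in both states but in opposite directions. Of the 182 higher with no overlap at rest, 21 were lower with no overlap after LPS, as were 9.72% of all autosomal genes. Of the 115 lower ones, 16 were higher with no overlap after LPS, as were 8.81% of all. Igfbp3 was lower in untreated knockout spleen and higher after LPS, at 186, 184 and 232 in wild-type against 344, 464 and 293. Nfkbiz read 1137, 1264 and 1629 against 2121, 1783 and 1965 after LPS, and Pou2af1 1378, 1275 and 1353 against 1633, 1686 and 1644. The dimmer Nfkbiz set overlapped after LPS too, at 421, 413 and 500 against 737, 481 and 604. The test of the difference between the 2 states (limma interaction) passed the threshold for 0 genes, and 785 of 11970 had an unadjusted p under 0.05.

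**Figure D5:**
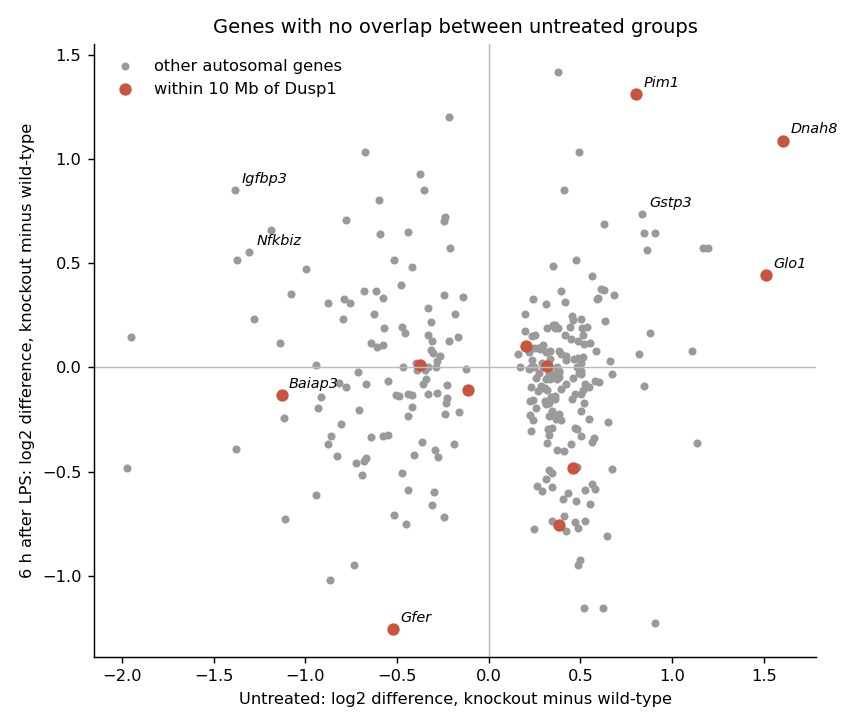
Log2 difference, knockout minus wild-type, in untreated spleen (horizontal axis) and 6 h after LPS (vertical axis) for the 297 autosomal genes whose untreated groups did not overlap. Red points lie within 10 Mb of Dusp1. The gap around 0 on the horizontal axis follows from how the genes were chosen. Pim1 and Dnah8 are positive on both axes, and Igfbp3 and Nfkbiz are negative at rest and positive after LPS.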

How the data were processed

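Total spleen RNA was labelled with biotin and hybridised to MOE430A 2.0 arrays, 1 array per mouse. Per the series' design text and the submitters' processing notes, the authors made expression values with the RMA algorithm. The deposited table holds them as whole-number intensity values from 6 to 15228 on a linear scale. Why they are linear is not given in the sources used here. Depth has no meaning for arrays, and the number of arrays limits precision.

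Intensities were taken as log2, and 64 control probe sets were left out. All 12 arrays were fitted with 4 group means in limma 3.58.1 (R 4.3.3; empirical Bayes, 8 residual and 2.72 prior degrees of freedom), and p-values were adjusted by Benjamini-Hochberg over 22626 probe sets. The fit was tested on simulated data. Genes were named through the platform annotation and RefSeq's GRCm38.p6 table: 20380 probe sets had 1 gene, 691 several and 1555 none. The brightest probe set stood for a gene, others are named where they disagree. Lists matched 1083 members by symbol and 6 by synonym, and 153 were not measured.

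The members and lists were chosen with earlier results of these data known. Genes named are, of autosomal genes, those past the threshold (0), the 15 of smallest p in each direction with no overlap and a mean above the 40th percentile, outside the pancreas, liver, lung, adipocyte, muscle and red cell precursor lists, the 8 largest differences each way with no overlap and that mean, up to 4 of smallest p per list, the 6 of smallest p within 10 Mb of Dusp1, up to 8 each way separating in both states, and a fixed set of markers. Other genes named were chosen for their role or position after their values were seen.

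Replicate numbers are shared across genotypes. Same-numbered control arrays deviated together from their group means (r = 0.142, 0.136 and 0.277), and differently numbered ones gave -0.413 to 0.175, the highest being wild-type 2 with knockout 1. Every same-numbered pair was over 0.1, so the fit with the replicate block was run as an alternative. The labels give individual mice.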

Additional observations from a re-analysis of the deposited data

Results flagged for a closer look

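In all, 11 autosomal genes of the lists and rules separated the genotypes at rest and, in the opposite direction, after LPS. On the probe set that stood for the gene, every array of 1 genotype was above every array of the other in each state. The dimmer sets of Nfkbiz and Zfp36l1 overlapped in both states. The interaction term of limma did not pass the threshold for any of the 11 genes. At rest the log2 differences, knockout minus wild-type, were -1.39 for Igfbp3, -1.31 for Nfkbiz, -1.28 for Ndfip1, -0.88 for Pou2af1, -0.75 for Zfp36l1, -0.37 for Mapk6 and -0.35 for Vcam1. After LPS they were 0.85 for Igfbp3, 0.56 for Nfkbiz, 0.23 for Ndfip1, 0.31 for Pou2af1, 0.31 for Zfp36l1, 0.93 for Mapk6 and 0.85 for Vcam1. The C-type lectin Clec10a of macrophages and dendritic cells was 0.91 at rest and -1.23 after LPS, the mitochondrial ribosomal protein Mrpl40 0.35 and -0.74, the hydrolase Nudt22 0.57 and -0.36, and the mitochondrial superoxide dismutase Sod2 0.22 and -0.23. The smallest adjusted interaction p among these was 0.307, for Mapk6.

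The Y-linked Eif2s3y, outside the autosomal comparison, read 316 in wild-type control 2, where 4 of the other untreated arrays read 7 to 10 and wild-type control 3 read 53.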

How the results depend on the processing

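With all 12 arrays the count of autosomal genes past the adjusted threshold was 0, and 167 had an unadjusted p under 0.05. The count stayed 0 with the 6 control arrays alone, with the replicate block (175 at the unadjusted threshold), with median scaling, quantile normalization, cyclic loess, an offset of 16, a filter on dim probe sets, array weights, a trended robust prior, the organ means as covariates and each control array left out (0 to 0). It was 153 (50 higher, 103 lower) without the 3 arrays highest in pancreas genes, which left knockout control 2 as the only knockout control and assumes that it varied like the other groups. It was 3, all lower, without wild-type controls 2 and 3, whose Xist was low, which left wild-type control 1 as the only wild-type control under the same assumption. At the unadjusted threshold the count was 78 with the 6 control arrays, 92 when these were fitted with the block (added after seeing the data), 86 with the dim filter, 83 with weights, 364 with covariates, 1813 without the pancreas-high arrays, and 125 (without wild-type control 2) to 604 (without knockout control 3) with 1 array left out. The block changed no call. The genes of the rules on separation and position (30, 16, 6 and 16, some named by several) changed sign in 0 alternatives. Of 191 named from lists 56 did, 93 times in all, and of the 27 fixed markers 23 did, 76 times. For the genes of the separation rules (30, 16 and 16), leaving out arrays could not change the sign. Their counts are therefore not comparable with those of the lists and markers. Dusp1 passed under no alternative, with 0.31 to 1.44 log2 units, the top value without the arrays highest in red cell precursor genes. Signal near background limits what dim genes can show.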
